A study of Schizosaccharomyces pombe with 28 samples.

Results

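The mug genes (meiotically upregulated genes) and meu genes (meiotic expression upregulated genes) of the fission yeast Schizosaccharomyces pombe were named in earlier screens for their induction during meiosis and sporulation. All genes whose symbol in the array annotation consists of mug or meu and a number were taken, which gave 109 genes of the 4929 gene identifiers measured. Of these, 91 were mug genes and 18 were meu genes. They were measured in 28 two-colour arrays that form a single group. Both channels of each array held cDNA of the wild-type strain LJY1014, genotype h- leu1-32, from independent cultures grown in YES, a rich medium, and harvested in the early-log phase. No treatment, mutant or meiotic sample was part of the comparison, so each ratio compares one vegetative culture with another.

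Meiosis in fission yeast is a response to starvation. The transcription factor Ste11 starts the programme, the RNA-binding protein Mei2 drives entry into meiosis, and the forkhead factor Mei4 switches on the genes of the divisions and of spore formation. In growing cells many transcripts of meiotic genes are destroyed after they are made, through the RNA-binding protein Mmi1 and the nuclear exosome. The names mug and meu record when a gene is induced and not what it does. The group therefore holds proteins of chromosome pairing, of the forespore membrane and spore wall, RNA-binding proteins, enzymes and many proteins without a known role.

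The values were log2 ratios of the channels. Each array was centred on its median over all genes, and a gene's value is the average of its 2 probes, so 0 means the same ratio as the median gene. The sources used here do not give the numerator channel or any dye swap, so a sign names no culture. Every test of a mean takes the arrays as having 1 orientation. A ratio carries no level, so the ratios do not show how strongly a gene is transcribed, and a marker check of the growth phase was not possible. The deposited array medians lay between -0.29 and 0.01. The arrays fell into 3 sets by clustering on all genes, namely arrays 1 to 8, 19 and 20 (called the first set), arrays 9 to 18 (the second) and arrays 21 to 28 (the third). The median correlation between arrays over genes was 0.657 within a set and 0.039 across sets. The labels do not name these sets. Standard errors over 28 arrays treat the arrays as independent and are therefore too small. Adjusted p-values are Benjamini-Hochberg values over all 4929 gene identifiers, with a threshold of 0.05.

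The mug and meu genes varied about as much between arrays as other genes did. The SD of a gene's ratio over the 28 arrays had a median of 0.16 among the 109 genes (quartiles 0.13 and 0.20, range 0.066 to 0.47), against 0.17 over all genes (quartiles 0.13 and 0.22). An SD of 0.3 or more was reached by 4 of them, mug24, mug151, mug176 and mug35, which is 3.67% against 8.12% of all genes. With the differences between array sets removed, the median SD was 0.12 for the 109 genes and 0.12 for all genes. The steadiest was mug89, whose product belongs to the CDC50 family of membrane proteins, with an SD of 0.066. It was followed by mug15 at 0.083, by meu7, which encodes an alpha-amylase homologue, at 0.091 and by mug133 at 0.092.

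**Figure D1:**
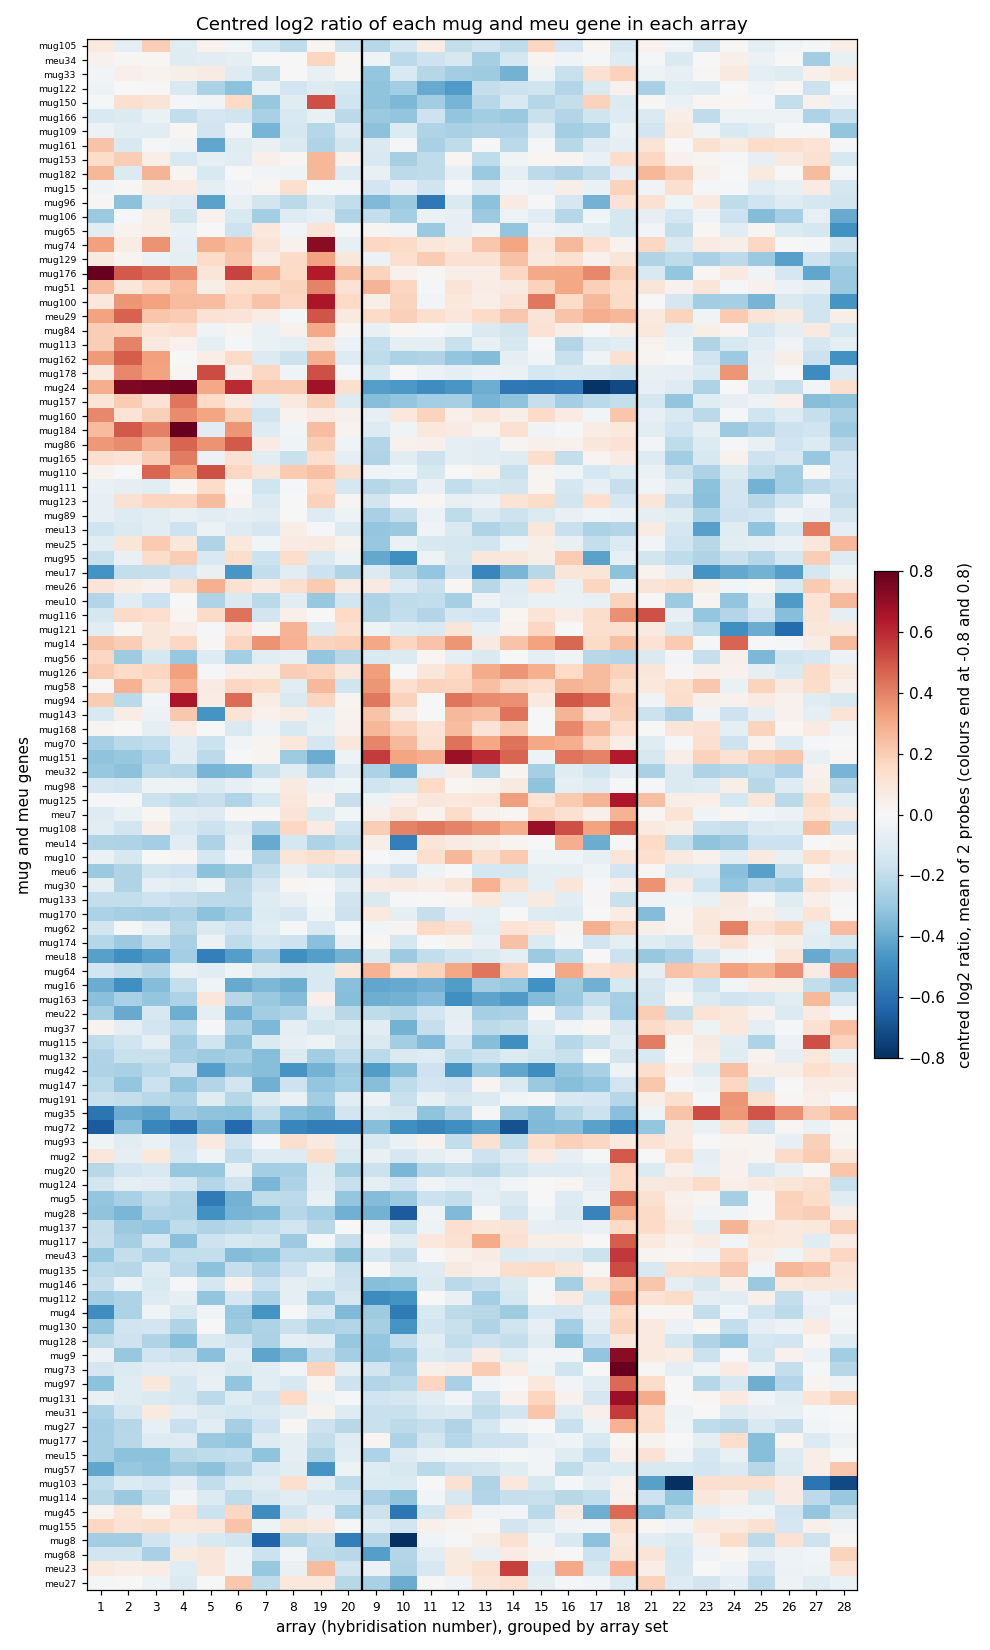
Centred log2 ratios of the 109 mug and meu genes (rows, ordered by clustering) in the 28 arrays (columns, grouped by array set), with red above and blue below 0. Rows mug24, mug151, mug35 and mug72 change colour at the lines between array sets, and array 18 holds a block of red cells.

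The 2 probes of a gene gave the measure of how much of this variation was repeatable. The sources used here do not say whether they are different stretches of the gene or repeated spots. Repeatable therefore means only alike in the 2 probes. An F test set the array-to-array variance of a gene's mean against the scatter between its probes. It was passed by 27 of the 109 genes (24.8%), against 53.2% of all genes. With the array sets as fixed blocks, which leaves the variation within sets, 12 genes passed (11.0%), against 23.4% of all genes, and 9 passed both. The median correlation of the 2 probes over the arrays was 0.260 for the 109 genes (quartiles 0.089 and 0.392) and 0.419 for all genes (quartiles 0.175 and 0.645). It was below 0 in 22 of them (20.2%, against 12.9% of all genes) and 0.7 or more in 7 (6.42%, against 19.0%). These 7 were mug24, mug28, mug35, mug42, mug72, mug151 and mug176. Among the 18 meu genes 1 passed, meu18. No spot intensities were used here, so whether dim spots go with the lower repeatability of these genes was not tested.

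The RNA-binding protein gene mug24 had the largest spread, with an SD of 0.47. Its ratio ran from -0.78 through a median of -0.084 to 0.77. All 10 arrays of the first set were above 0 (0.13 to 0.77, mean 0.47), and all 10 of the second were below it (-0.78 to -0.39, mean -0.55). The third set lay between -0.25 and 0.13, with a mean of -0.076. The first and second sets thus did not overlap. The sets were drawn from these same values, mug24 was picked for its spread, and the share of all genes without such an overlap was not counted. The opposite signs left a mean over all arrays of -0.051 with an SE of 0.089, which did not pass (limma adjusted p = 0.632). The probes followed each other with a correlation of 0.836 (F test adjusted p = 1.78e-07), but within array sets the variation did not pass (adjusted p = 0.186). Between-set differences held 85.8% of the variance of mug24.

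The sets were drawn from all genes of the same arrays, and differences between them held a median of 32.9% of the variance in the 109 genes and 43.9% in all genes. In mug151 the second set was high, at -0.043 to 0.69 with a mean of 0.43, and the first set averaged -0.19 and the third 0.073. The 2 probes of mug151 had a correlation of 0.837 (F test adjusted p = 2.96e-07), and the variation passed within sets too (adjusted p = 0.0164). In mug35 the third set was high, from -0.037 to 0.52 with a mean of 0.30. The first set (-0.58 to -0.15) and the second (-0.35 to -0.0084) were all below 0, so mug35 was below 0 in 20 of 20 arrays there and overlapped the third set only slightly. The adjusted p of mug35 in the F test was 7.95e-07, and 0.0353 within sets.

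The gene mug176, whose product has a BRCT domain, a fold of proteins of the DNA damage response, averaged 0.43 in the first set, 0.17 in the second and -0.15 in the third. Its highest value of 1.05 came from array 1, where its probes read 0.95 and 1.16. The other 27 arrays ran from -0.42 to 0.63. Its adjusted p in the F test was 2.36e-05, and 0.0178 within sets.

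The gene mug108 was high in the second set (0.20 to 0.69, mean 0.41), with means of -0.077 in the first set and -0.048 in the third. Its probes moved together with a correlation of 0.62, but their mean ratios lay apart, at -0.084 and 0.29. A like order with a smaller range was seen in mug70, a gene for a protein with CBS and PB1 domains, at -0.089, 0.28 and -0.028. In mug42 the means were -0.31, -0.32 and 0.083. Within sets the variation of mug108, mug70 and mug42 did not pass (F test adjusted p = 0.277, 0.235 and 0.371). The arrays of the third set did not overlap those of the other sets in 2 of the 109 genes, mug72 and mug129, against 2.54% of all genes, where the sets were drawn from the same values.

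**Figure D2:**
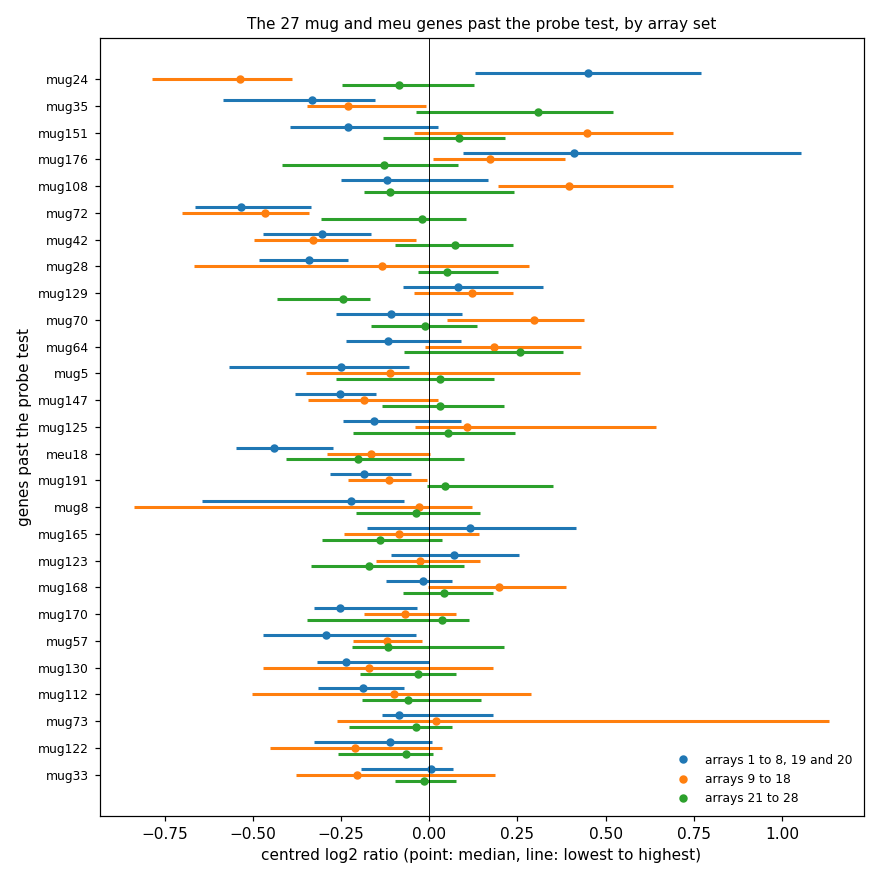
Median (point) and range (line) of the centred log2 ratio in each array set for the 27 mug and meu genes past the probe test. The first and second sets of mug24 lie on opposite sides of 0, and the third set of mug72 lies above the other two.

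**Figure D3:**
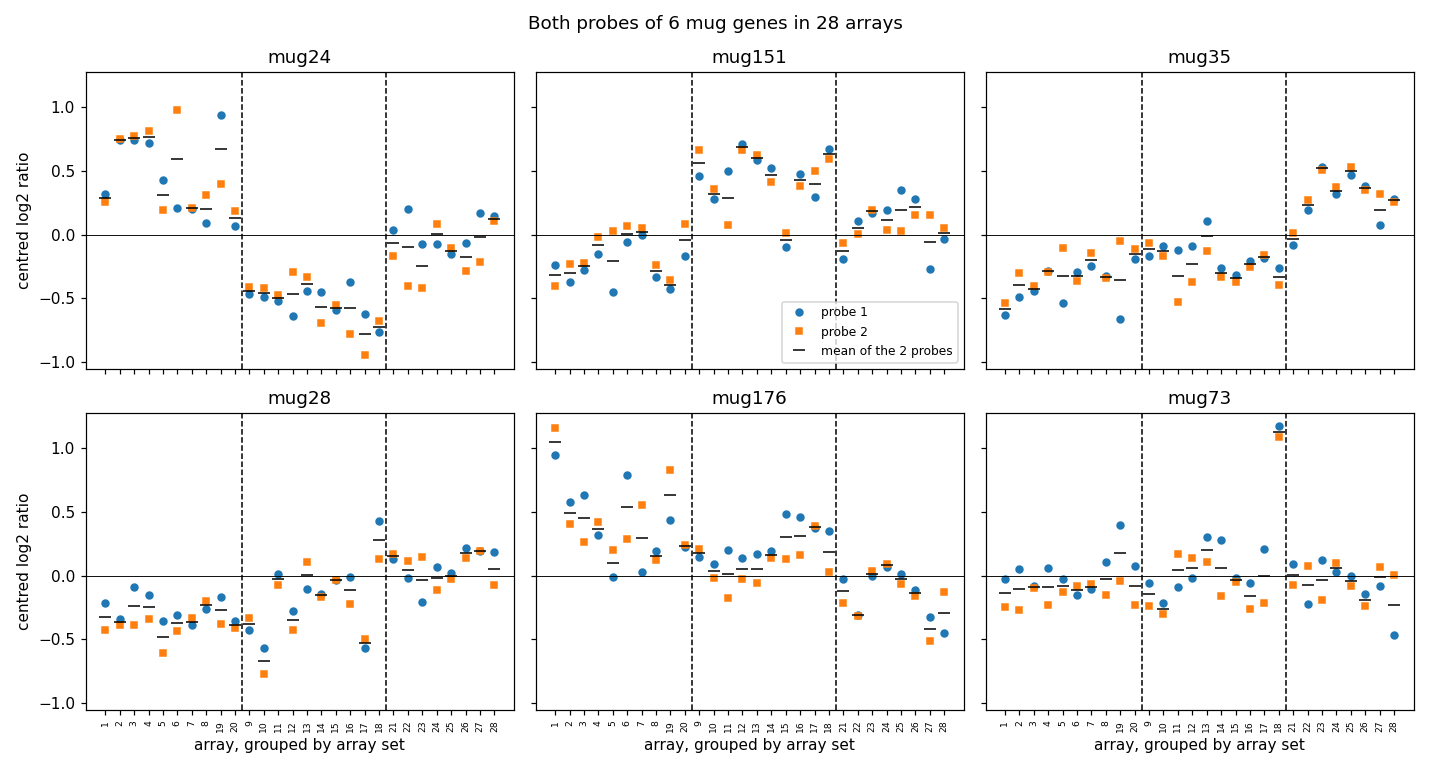
Centred log2 ratio of each probe of 6 mug genes in the 28 arrays, with the mean of the 2 probes as a dash and dashed lines between array sets. Both probes of mug24 change sign between the first and second sets, and both probes of mug73 exceed 1 in array 18.

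The gene mug28, which encodes an RNA-binding protein needed for normal spore formation, varied within the sets as well as between them. Its ratio ran from -0.67 through -0.19 to 0.28, with means of -0.33, -0.20 and 0.072 in the 3 sets. All of the first set was below 0 (-0.48 to -0.23), and the second set spanned the whole range. The F test gave an adjusted p of 1.1e-06 and, within sets, of 0.000705. Its mean of -0.17 (SE 0.046) was below 0 (limma adjusted p = 0.00211), but not with the array sets as a random block (adjusted p = 0.497).

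Tested over all 28 arrays, more of the genes lay below 0 than above. With limma, 53 of the 109 (48.6%) had a mean below 0, against 23.3% of all genes called below, and 10 (9.17%) had a mean above 0, against 28.6% of all genes. The other 46 did not pass. The median of the 109 means was -0.063 (quartiles -0.13 and 0.011), and that of all genes 0.013 (quartiles -0.061 and 0.093). Of the means, 78 (71.6%) were below 0, against 45.0% over all genes, and both probes of a gene averaged below 0 in 60 (55.0%), against 33.9%. Genes with a mean below 0 in every array set numbered 46, against a background of 15.4%, and those above 0 in every set 6, against 15.8%. The median of the 109 genes was below 0 in 25 of the 28 arrays.

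These calls rest on taking the arrays as independent. With the array sets as a random block in limma, 1 gene remained below 0 (background 0.812%) and 0 above (background 0.69%). At an unadjusted p under 0.05 the counts were 18 below (16.5%, against 6.78% of all genes) and 4 above (3.67%, against 7.83%). Within single sets, limma called 57 below and 19 above in the first, 48 and 22 in the second, and 20 and 4 in the third. The respective backgrounds below were 30%, 33% and 14.1%, and those above 35.2%, 32.9% and 12.3%. The genes are shorter than others (median 1479 bases from gene start to end, against 1811 for all genes with a length). With the trend of the ratio on gene length removed from each array, 56 were below and 10 above 0, against 21.3% and 27.3% of the genes with a length, and the median of the means was -0.069.

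**Figure D4:**
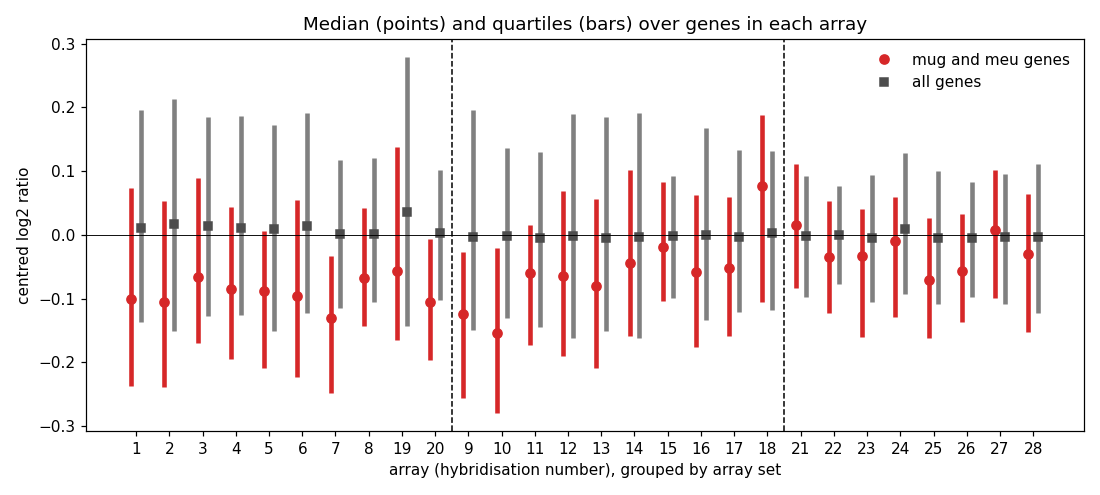
Median (point) and quartiles (bar) of the centred log2 ratio over the 109 mug and meu genes and over all 4929 genes in each array, grouped by array set. The median of the 109 genes is above 0 in arrays 18, 21 and 27 and below 0 in the other 25.

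The gene that stayed below 0 with the block was mug72. Its ratio ran from -0.70 through -0.41 to 0.10 and was below 0 in 24 of 28 arrays. The mean was -0.36 with an SE of 0.044 (limma adjusted p = 6.78e-08, and 0.0145 with the array sets as a random block). Its first set (-0.66 to -0.33) and second set (-0.70 to -0.34) were entirely negative. The third set averaged -0.046 and did not pass alone (adjusted p = 0.444).

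The next lowest means were those of mug16 at -0.26 (SE 0.031, below 0 in 26 of 28 arrays) and meu18 at -0.26 (SE 0.032, 26 of 28). Then came mug163 at -0.23, meu17 at -0.22 and mug42 at -0.20. With the block, limma gave mug16 an adjusted p of 0.0811 and meu18 one of 0.0706. The 2 probes of mug163 averaged -0.40 and -0.053, so 1 probe carried most of its mean. One gene, mug89, was below 0 in all 28 arrays (-0.26 through -0.091 to -0.00028, mean -0.10, SE 0.012). The background for that sign in every array is 0.446% of genes.

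The highest mean was that of mug14, which encodes an adducin-like protein, at 0.20 (SE 0.025, above 0 in 25 of 28 arrays, limma adjusted p = 2.87e-07, and 0.201 with the block). It was followed by mug176 at 0.17, meu29 at 0.16, mug94 at 0.15, mug58 at 0.14 and mug126 at 0.13. In 2 of these genes the probes had opposite signs. The probes of mug58 averaged -0.011 and 0.29, and those of mug126 averaged 0.31 and -0.045. None of mug14, meu29, mug94, mug58 and mug126 passed the F test of its probes (adjusted p = 0.386, 0.618, 0.272, 0.936 and 0.623).

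For 16 of the genes a role was listed. With limma 12 had a mean below 0, 1 a mean above 0 and 3 did not pass, and the median of their means was -0.12. Over all genes limma called 23.3% below 0 and 28.6% above, and over all mug and meu genes 48.6% and 9.17%. With the array sets as a random block 0 of the 16 passed, and their smallest adjusted p was 0.201, in mug14. The F test of the probes was passed by 53.2% of all genes and 24.8% of the mug and meu genes. Of the 16, 3 passed it, mug24, mug28 and mug33. The last encodes a membrane protein linked to exocytosis at the cell tips, with a mean of -0.063 (SE 0.026).

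The list held 2 genes of chromosome pairing and recombination. For meu13, the homologue of Hop2, which helps homologous chromosomes pair, the ratio ran from -0.43 through -0.13 to 0.41 with a mean of -0.12 (SE 0.030, below 0 in 24 of 28 arrays). For mug20, whose product associates with the linear elements of meiotic chromosomes, it ran from -0.36 through -0.12 to 0.22 with a mean of -0.13 (SE 0.026, 23 of 28). Both passed in limma (adjusted p = 0.00134 and 0.000196) but not with the block (0.535 and 0.409).

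Beside mug28, it held 3 genes of spore formation. The mean was -0.12 (SE 0.030) for meu10, which is needed to build the spore wall, and the range ran from -0.45 to 0.26. It was -0.12 (SE 0.036) for meu14, whose product sits at the leading edge of the growing forespore membrane, and -0.12 (SE 0.024) for mug27, a protein kinase of the same membrane. The arrays below 0 numbered 22, 17 and 25. The 2 probes of meu14 had a correlation of -0.091.

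Among the genes of metabolism and transport, meu17, a glucoamylase-like gene, averaged -0.22 (SE 0.033) with almost equal set means of -0.22, -0.21 and -0.24. For meu22, which encodes an amino acid permease, the set means were -0.25, -0.18 and 0.022, with a total mean of -0.15 (SE 0.029). The gene mug178, for a mitochondrial ribosomal protein, ran from -0.50 to 0.52. Its first set averaged 0.20, against -0.090 and -0.071 in the others, and its mean of 0.020 (SE 0.042) did not pass. Of the others on the list, meu6 averaged -0.15 (SE 0.021, below 0 in 26 of 28 arrays, limma adjusted p = 3.41e-06, and 0.253 with the block). The coilin-like mug174 averaged -0.085 (SE 0.024), the deubiquitinating enzyme gene mug105 -0.054 (SE 0.021) and mug113 -0.047 (SE 0.024), and of these mug113 did not pass (limma adjusted p = 0.117).

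Array 18 stood apart from the other arrays of its set in the mug and meu genes. Their median there was 0.077, the highest of the 28 arrays, against -0.15 to 0.015 in the others. Above 0 were 67 of the 109, against 2487 of all 4929 genes. The highest of a gene's 28 values fell in array 18 for 24 genes (22.0%, against 6.80% of all genes), and the lowest for 0 genes (6.90% of all genes). In 42 genes (38.5%, against 21.2% of all genes) array 18 exceeded all of arrays 9 to 17, and in 7 (6.42%, against 19.4%) it lay below them all. This array was singled out after the values were seen. A sign names no culture, so these ratios do not tell which of the cultures held more of a transcript. RNA from whole cultures also does not show how a difference is shared among cells. Whether the values come from the cultures or from the measurement was not tested.

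The gene mug73 was the most extreme case. It measured 1.13 in array 18, where its probes read 1.17 and 1.09, and -0.26 to 0.21 in the other 27 arrays. Its SD of 0.25 fell to 0.11 without array 18, and its F test then no longer passed (adjusted p = 0.687, against 0.000311 with all arrays). Both probes of mug125 were also high in array 18, at 0.60 and 0.69, as were those of mug151, at 0.67 and 0.59, whose second set averaged 0.43.

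In several other high genes the probes differed. They read 1.16 and 0.29 in mug9, 0.22 and 1.15 in mug131, 1.17 and -0.19 in mug2, and -0.096 and 1.22 in meu43. Both probes exceeded arrays 9 to 17 in 13 of the 109 genes (11.9%, against 6.72% of all genes) and only 1 probe did in 43 (39.4%, against 23.7%). Both were the highest of 28 in 4 genes, meu31, mug9, mug73 and mug125 (3.67%, against 0.893%). The probes of these genes also scattered widely in array 18. The SD of the difference between the probes over the 109 genes was 0.45 there and 0.17 to 0.38 in the other arrays, and over all genes it was 0.26 in array 18. The median absolute difference of the probes was 0.23 there, and higher in 1 array, array 5 (0.27). The part of this disagreement in the high values of array 18 was not tested. Without array 18, 10 of the 109 genes were called above 0 and 55 below, against 28.2% and 23.5% of all genes, and 24 passed the F test, against 51.2%.

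**Figure D5:**
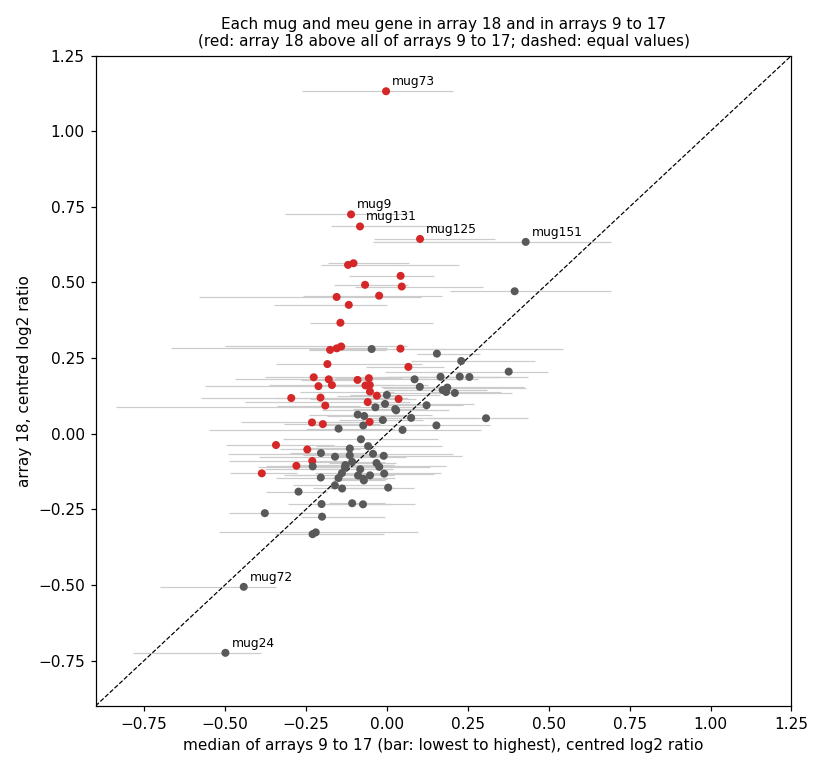
Centred log2 ratio of each of the 109 genes in array 18 (vertical axis) against its median in arrays 9 to 17 (horizontal axis, bar from lowest to highest), with the 42 genes above all of arrays 9 to 17 in red. The gene mug73 is the highest at 1.13, and mug24 lies lowest, at -0.72 in array 18 against a median of -0.50 in arrays 9 to 17.

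Array 10 was low in a group of genes. Of the 109, 15 had their lowest value there (13.8%, against 2.07% of all genes) and 0 their highest. Both probes were low in mug8 (-0.84 and -0.83), mug28 (-0.56 and -0.77), mug45 (-0.58 and -0.58), mug4 (-0.39 and -0.73) and meu14 (-0.58 and -0.52), which were picked after their values were seen. The pattern was not particular to array 10. Array 7 held the lowest value of 8 genes (7.34%, against 1.28% of all genes). There mug8, mug45, mug4 and meu14 were again among the lowest, although the probes of meu14 read -0.75 and -0.063. In mug8 the mean of -0.15 (SE 0.043) went with values from -0.84 through -0.12 to 0.14. Arrays 7 and 20 were its next lowest, at -0.64 and -0.55. In other genes a single probe gave the extremes. In mug103 the arrays 22, 27 and 28 read -1.42, -1.15 and -1.54 with probe 2, and -0.35, -0.018 and 0.097 with probe 1.

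Over the 5886 pairs of the 109 genes, the mean correlation was 0.076 over all arrays and 0.095 within sets, against 0.010 and 0.011 for all genes. Since the arrays form sets, the following values are descriptions over 28 arrays. The pair most alike was mug35 and mug72, both high in the third set, with a correlation of 0.856 overall and 0.343 within sets. For mug24 and mug157 the values were 0.798 and 0.235, and within single sets the sign changed (0.724, -0.770 and -0.574). The pair mug86 and mug165 kept 0.682 within sets and 0.670 when array 18 was also left out. The pairs that shared a high array 18 lost more. Within sets, meu31 and mug27 had 0.791 with that array and 0.625 without it, meu31 and mug131 0.797 and 0.485, and meu43 and mug135 0.612 and 0.080. Correlations of probe 1 of the first gene with probe 2 of the second, and the reverse, were lower over all arrays. They were 0.65 and 0.78 for mug35 and mug72, 0.50 and 0.70 for mug24 and mug157, and 0.57 and 0.26 for mug86 and mug165. For meu31 with mug27 they were 0.32 and 0.74, for meu31 with mug131 0.63 and 0.13, and for meu43 with mug135 0.43 and 0.22.

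In the RefSeq gene order 4 pairs of the 109 genes are adjacent, and their correlations over the arrays ran from -0.161 to 0.457, with a median of 0.151. The highest was that of mug116 and mug86. In 2 pairs, mug57 with mug97 and mug177 with mug58, the genes overlap on opposite strands, with correlations of 0.154 and -0.161.

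Other genes of the meiotic programme, none with a mug or meu symbol in the array annotation, were read from 5 lists. Synonyms were not screened, so a listed gene may also carry such a name. The background for each list is 23.3% of all genes below 0 in limma, 28.6% above and 53.2% past the F test. Of 16 regulators, 7 had a mean below 0 in limma, 0 above, and 7 passed the F test. The most variable were ste11, which encodes the starter of the programme, with set means of 0.15, -0.27 and 0.0080, the transcription factor gene atf21 and red1, whose product works with Mmi1. Of 30 genes listed for recombination and chromosome structure, 15 were below, 1 above and 8 passed the F test. The 1 above was hrs1 (mean 0.25, limma adjusted p = 3.04e-09). Listed genes were matched by name only, and whether this hrs1 is the meiotic gene was not checked. It is therefore not read as a recombination gene above 0. Of the 30, sgo1, which protects centromeric cohesion, taz1, a telomere protein gene, and rec10, a linear element gene, varied most. The recombination gene rec7 was the only one on the lists to pass with the block (mean -0.35, SE 0.033, limma adjusted p = 0.0364), and its 2 probes had a correlation of -0.439.

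Of 15 genes of the divisions and forespore membrane 6 were below, 2 above and 6 passed the F test, with the spindle pole body gene spo15, the membrane fusion gene sec9 and spo9 the most variable. The 18 spore genes gave 8, 1 and 11. There tps1 and ntp1, which make and break down the stress sugar trehalose, had the widest spread, with SDs of 0.43 and 0.40. Both were low in the second set (-0.49 and -0.51) and high in the third (0.47 and 0.39), and isp7 came next. The 10 genes listed as mde genes, a group that depends on Mei4, gave 4, 1 and 7, led by mde10, mde3 and spn7. The 1 above was mde1 (mean 0.19), which also passed the F test. It was matched by name only, and whether it is the gene that depends on Mei4 was not checked. It is therefore not read as such a gene above 0. The medians of the means in the 5 lists were -0.073, -0.063, 0.0034, -0.076 and -0.023.

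In array 18 these lists did not all behave alike. The medians there were 0.26 in the mde genes, 0.022 in the regulators, 0.050 in the recombination genes, 0.037 in the genes of the divisions and -0.14 in the spore genes. Of the 85 genes in the lists, 19 had their highest value there, against 6.80% of all genes. Both probes exceeded arrays 9 to 17 in 12 of the 85 (14.1%, against 6.72% of all genes). Examples with both probes high, picked after the values were seen, were mde3 (0.51 and 1.11) and the meiotic checkpoint kinase gene mek1 (0.55 and 0.66). The starter gene ste11 was at -0.055 in array 18, near the highest value of arrays 9 to 17, which ran from -0.52 through -0.36 to -0.042.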

How the data were processed

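Per the labels, slides were scanned with a GenePix scanner, background-corrected and filtered for flagged and dim spots, and medians of log2 ratios were deposited. The deposited table had 0 missing values, so which spots were dim is unknown. It held 2 probes for each of 4929 identifiers. All 109 members matched a RefSeq gene with the same symbol. The files name no genome build, so no coordinates are given. Array ratios were centred on the array median and the 2 probes averaged. For the means, limma 3.58.1 (R 4.3.3, robust prior) gave a two-sided test against 0. Repeatability was tested with a one-sided F test of the variance between arrays over the probe disagreement. Array sets came from average-linkage clustering on 1 minus the correlation. The random block had a correlation of 0.482. Both tests were tried on simulated data with independent arrays and no array sets, so that trial says nothing about their use on arrays that form sets. Named genes followed a rule: the most and least variable, the highest and lowest means, the listed roles, the pairs most alike, array-specific values and probe differences. The genes, lists and tests were chosen with earlier results of these data known. Labels give independent cultures, without saying which arrays share one. The number of arrays limits the precision.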

Additional observations from a re-analysis of the deposited data

How the results depend on the processing

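No paired analysis was possible because all arrays form a single group. Counts and medians moved with the treatment of the array sets, and the cause was not tested. With the sets as a random block, limma called 74 of all genes (2559 otherwise) and, of the 109, 0 above 0 and 1 below. Without the first set 16 of the 109 were above 0, against 27.8% of all genes. The first set alone gave 19 above, a median SD of 0.11 and 0 genes past the F test of the probes (10 at an unadjusted p under 0.05), against 1.89% of all genes. The second set alone gave 22 above, a median SD of 0.12 and 3 past the F test, against 9.64%. The third set alone gave 1303 genes called over the table, 4 of the 109 above and 20 below, a median SD of 0.12 and 2 past the F test, against 11.4%. The single sets hold fewer arrays. With fixed blocks the median SD was 0.12 and 12 genes passed, and without the second set 17 did, against 33.0%. With probe 2 alone the median SD was 0.20. Without centring 8 were above, 62 below and 40 passed the F test, against 18.9%, 29.7% and 60.6%. Single genes were followed through these settings only for named genes, 34 for the mean and 12 for the F test. Changes in the other members are not listed. Of the 34 means, those that passed with all arrays or under the alternative and changed sign were as follows. They were mug24 without the second set (0.23) and in the first set alone (0.47), mug151 in the first set (-0.19) and mug178 in the second set (-0.090). In the third set alone they were mug176 (-0.15), mug35 (0.30), mug28 (0.072), mug42 (0.083), mug5 (0.018) and meu22 (0.022). So did mug58 with probe 1 (-0.011) and mug126 with probe 2 (-0.045). Sign changes of means that passed in neither are not listed. Among the named genes followed, leaving out array 18, chosen after seeing the data, ended the call of mug105 (limma adjusted p = 0.0638). It also ended the F tests of mug73 and mug5 (adjusted p = 0.687 and 0.0703). Of all 109 genes, 24 passed the F test without array 18, against 27 with it.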
